A study of Homo sapiens and Mus musculus with 16 samples.

Results

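The glutamate and GABA receptor subunits are the genes whose symbols begin with GRIA, GRIN, GRIK, GRID, GRM, GABR or GABBR and end in the subunit's number or letter. The counts table held 45 of them among 22286 genes, 26 subunits of glutamate receptors and 19 of GABA receptors. They were followed in P-body-seq, in which particles marked by LSM14A fused to GFP were sorted from lysed cells and their RNA was sequenced beside that of the cytoplasmic fraction they were sorted from. P-bodies are cytoplasmic condensates of RNA and protein that hold translationally repressed transcripts. The cytoplasmic fraction was the resuspended pellet of a spin that followed the removal of nuclei, so P-bodies were part of it.

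The 12 human libraries came from 3 cell types, with 2 of P-bodies and 2 of cytoplasm for each. Neurons were collected at day 20 of differentiation, and both they and liver bud progenitors came from UCLA4, a human embryonic stem cell line that carried GFP-LSM14A in a tetracycline vector at the AAVS1 locus. HEK293T, a human embryonic kidney line, carried GFP-LSM14A on a lentivirus driven by the EF1a promoter. The neuron and liver bud progenitor libraries are labelled polyA RNA and the HEK293T libraries total RNA, so the kind of RNA and the cell type cannot be told apart between HEK293T and the other cells. The study describes its replicates as biologically independent, while the labels do not say whether the libraries of a group came from separate cultures. If they did not, p-values measure only the spread between these libraries, which may be technical.

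Glutamate is the main excitatory transmitter of the brain and GABA the main inhibitory one. AMPA, NMDA and kainate receptors are cation channels opened by glutamate, GABA-A receptors are chloride channels, and metabotropic glutamate receptors and GABA-B receptors signal through G proteins. Each ionotropic receptor is assembled from several subunits, and which subunits a neuron makes changes as it matures.

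Library totals lay between 8638343 and 11474847 counts in neurons, between 6368953 and 10270471 in liver bud progenitors and between 11192209 and 17972284 in HEK293T. A floor of 3 counts therefore corresponded to between 0.261 and 0.347 CPM (a gene’s counts scaled to a common library total) in neurons, for counting error only. All 12 neuronal markers examined reached 1 CPM in the neurons, and 11 did in liver bud progenitors. Their summed level in cytoplasm was 14110 to 14920 CPM in neurons against 627 to 673 CPM in liver bud progenitors. The hepatic markers of liver bud progenitors summed to 444 to 454 CPM in cytoplasm, with ALB at or under the floor, and pluripotency markers there summed to 1494 to 1539 CPM. The neuron P-body libraries resembled each other less than those of any other group, with a Spearman rho across genes of 0.915 against 0.962 to 0.969.

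In neurons, 36 of the 45 subunits averaged 1 CPM or more across the 4 libraries, and 9 were set apart as weakly counted. The lowest kept was GABRR2, at a mean of 1.12 CPM, and the highest set apart was GABRE, at 0.612 CPM. Together the 45 subunits summed to 1117 and 1010 CPM in the P-body libraries and to 1434 and 1512 CPM in the cytoplasm libraries. Both P-body sums lay below both cytoplasm sums.

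Most called subunits were lower in P-bodies than in the cytoplasm of neurons. Of 44 subunits tested, 13 fell (29.5%), 1 rose (2.27%) and 30 were not called (edgeR quasi-likelihood test, adjusted p under 0.05). Over all 22093 genes tested, 14.1% were called lower and 14.6% higher, and these include genes under 1 CPM. At 1 CPM or more, both P-body libraries lay below both cytoplasm libraries in 21 of 36 subunits (58.3%) and in 33.9% of 14826 genes. They lay above in 11.1% and 38.4%. The median log2 change from cytoplasm to P-bodies was -0.50 over the subunits and 0.19 over all genes. Among the 13 that fell were GRIA1, GRIA2, GRIN1, GRIN2D, GRIK3, GRIK5, GRM2, GRM3, GABRA3, GABRG3, GABBR1 and GABBR2. Without neuron P-body replicate 1 more subunits were called lower, and without either cytoplasm replicate fewer. Over all genes more were called without either P-body replicate, not replicate 1 alone, and fewer without either cytoplasm replicate. The median change was then -0.63 over the subunits and 0.09 over all genes without P-body replicate 1, and -0.29 and 0.07 without P-body replicate 2. It was -0.52 and 0.21 without cytoplasm replicate 1, and -0.52 and 0.23 without cytoplasm replicate 2. Changes are given after TMM normalization, which scales libraries on the bulk of genes. With library size as the only scaling, the median of all genes moved to 0.35, so a ratio of CPM values reads higher for P-bodies than the change given beside it. Markers of neural progenitors summed to 3679 to 3834 CPM in neuron P-bodies and to 1819 to 1950 CPM in neuron cytoplasm. Of the 8, 4 were called higher, among them PAX6 and TOP2A, by 2.17 and 2.05 on the log2 scale. Another 2, MSI1 and NES, were called lower, and the median change of the 8 was -0.07. MKI67 alone held 1872 and 2035 CPM in neuron P-bodies and 997 and 1090 CPM in neuron cytoplasm. Their sum is not particular to neurons, with 2841 to 2862 CPM in liver bud progenitor cytoplasm, where MKI67 held 2171 and 2186 CPM. Single markers differed in both directions. PAX6 held 77.6 and 89.9 CPM in neuron cytoplasm against 5.18 and 4.97 CPM in that of liver bud progenitors. SOX2 held 66.4 and 61.7 CPM against 79.1 and 83.7 CPM. The part of these markers in the subunits' differences was not tested.

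**Figure D1:**
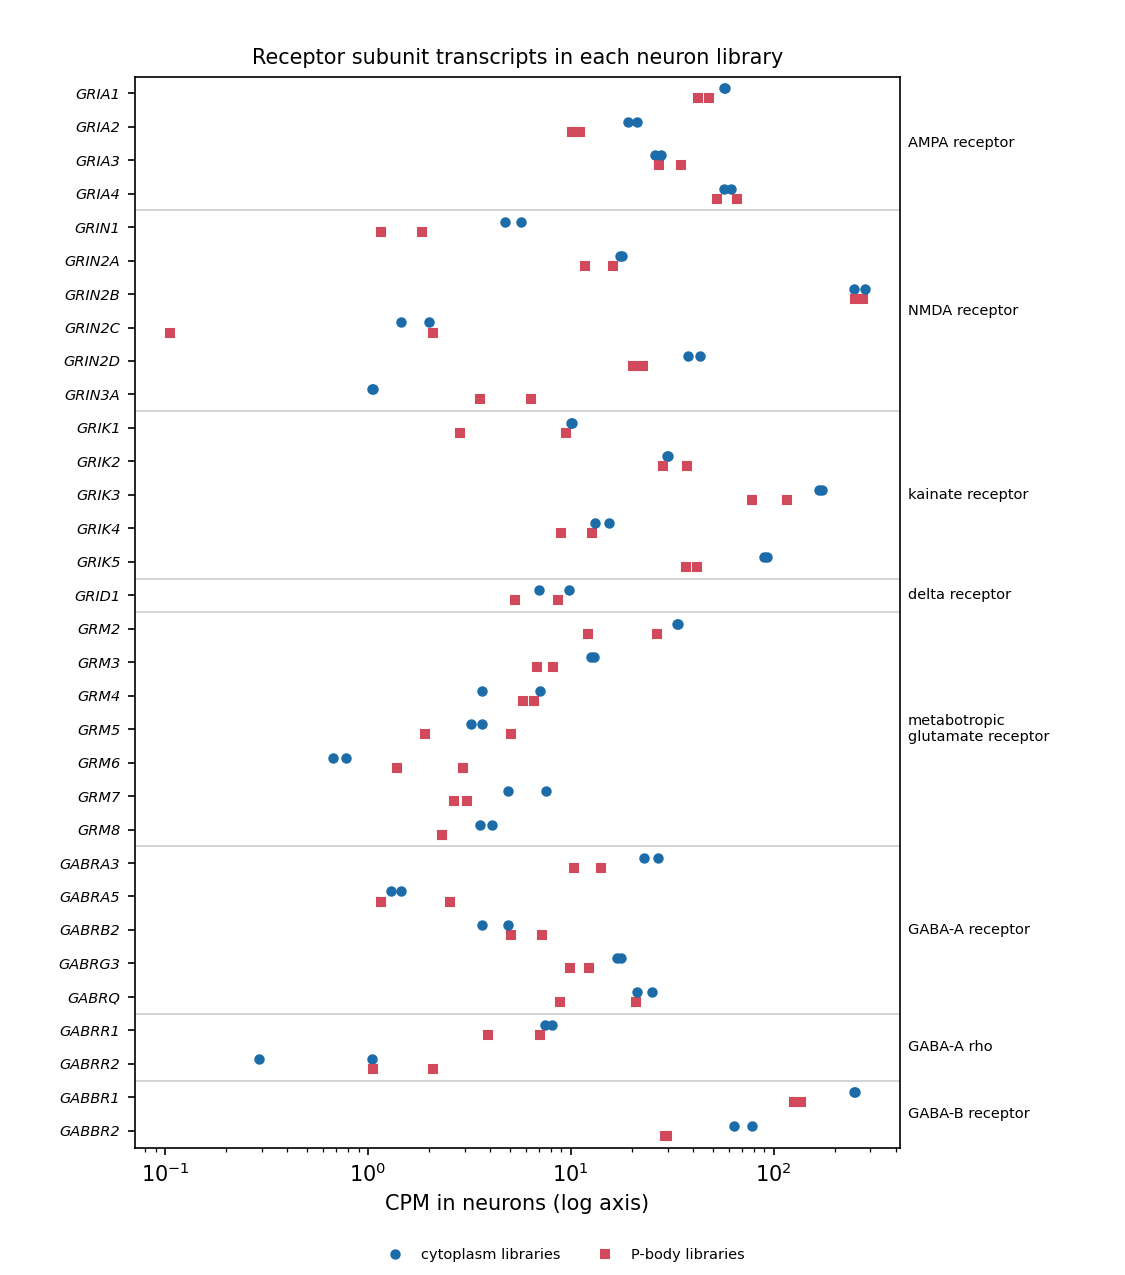
Level of 32 of the 36 subunits that averaged 1 CPM or more in neurons, in CPM on a log axis, with a square for each P-body library and a circle for each cytoplasm library. GABBR1, GABBR2, GRIK3 and GRIK5 are well to the left in both P-body libraries, and the 4 libraries of GRIN2B lie together between 250.1 and 283 CPM.

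**Figure D2:**
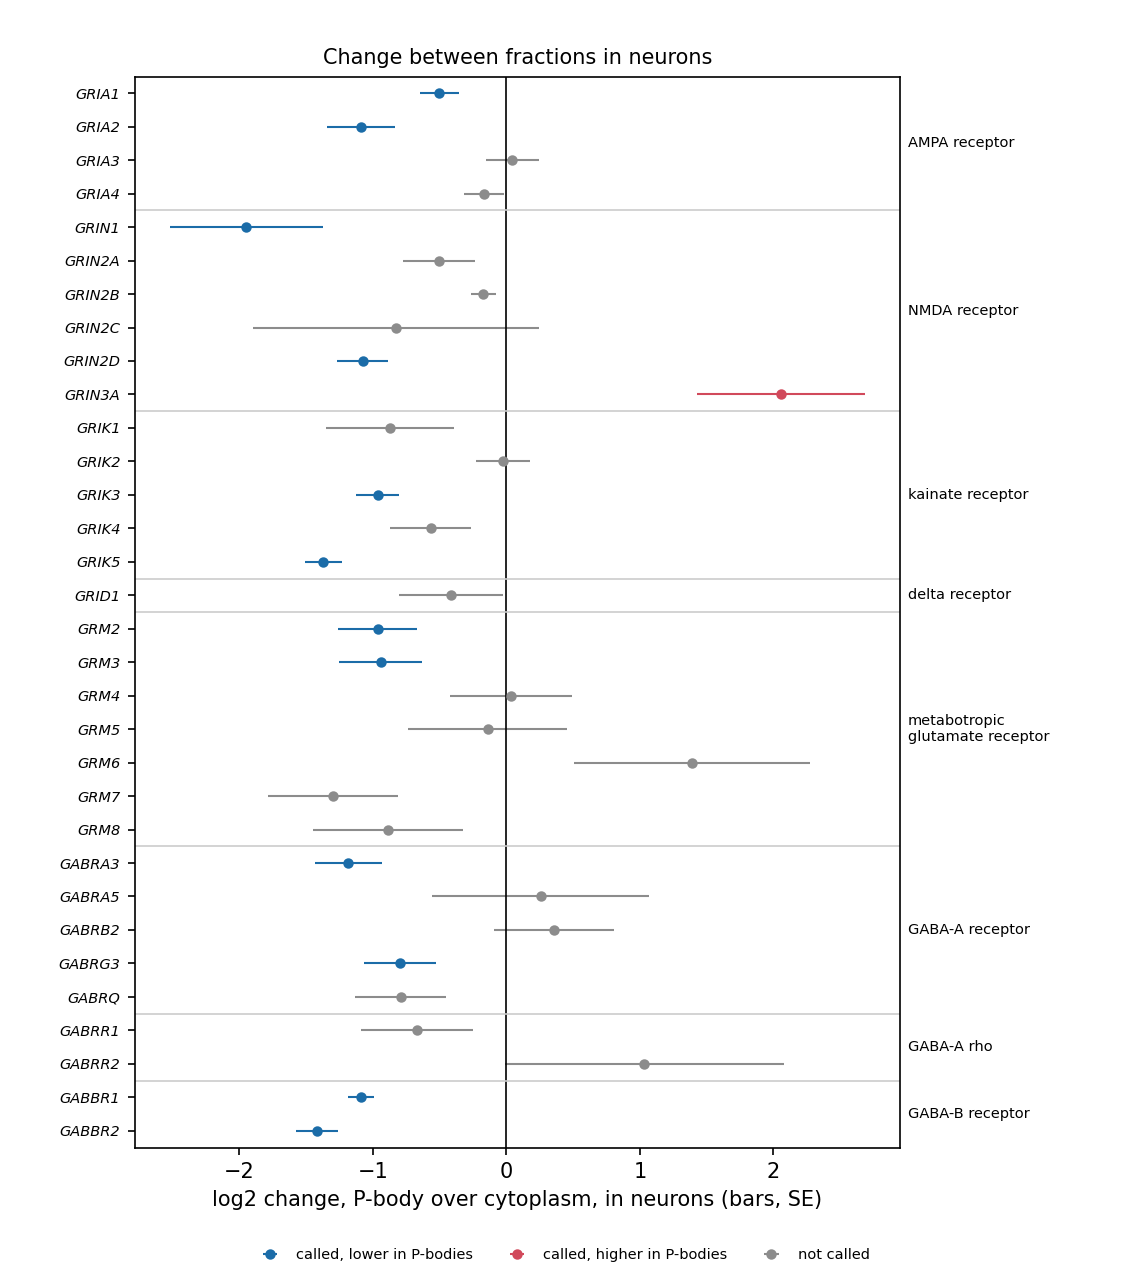
Log2 change from cytoplasm to P-bodies in neurons for the same 32 subunits, with bars of 1 SE. Subunits called lower range from -1.95 for GRIN1 to -0.50 for GRIA1, and the one called higher, GRIN3A, lies at 2.06.

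AMPA receptors carry most fast excitatory transmission, and 2 of their 4 subunits fell in P-bodies. GRIA2, the subunit that keeps the channel from passing calcium, held 10.2 and 11.1 CPM in P-bodies and 19.3 and 21.2 CPM in the cytoplasm. Its P-body libraries lay below both cytoplasm libraries, by 1.09 ± 0.26 (SE) on the log2 scale (edgeR adjusted p = 0.0059). GRIA1 held 42.6 and 47.9 CPM in P-bodies against 56.9 and 57.4 CPM, a change of -0.50 ± 0.15 (edgeR adjusted p = 0.0221). That call was lost with library size only, where the adjusted p was 0.131, and in DESeq2 (adjusted p = 0.0773). The calls of GRIA1 and GRIA2 were also lost without either cytoplasm replicate, with adjusted p from 0.0668 to 0.187.

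The other AMPA subunits did not pass the test. GRIA4 held 52.6 and 65.7 CPM in P-bodies and 57.1 and 61.8 CPM in the cytoplasm, and the fractions overlapped. GRIA3 held 27.2 and 34.9 CPM against 25.9 and 27.8 CPM, again with overlap. Their changes were -0.17 ± 0.15 and 0.04 ± 0.20 on the log2 scale.

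NMDA receptors need GRIN1 in every channel, beside GRIN2 subunits that set how the channel conducts and how fast it closes. GRIN2B, the GRIN2 subunit that prevails in the developing forebrain, was counted the most of all subunits in neurons, with 276 and 253 CPM in P-bodies and 250.1 and 283 CPM in the cytoplasm. The fractions overlapped, and its change of -0.17 ± 0.09 on the log2 scale was not called (edgeR adjusted p = 0.195), though in the fit of all human libraries it was -0.28 (adjusted p = 0.02). GRIN2D, another subunit of early development, held 22.8 and 20.2 CPM in P-bodies against 37.7 and 43.3 CPM and fell by 1.08 ± 0.19 (edgeR adjusted p = 0.000783). Whether GRIN2B and GRIN2D differed from each other was not tested.

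GRIN1 was counted weakly, with 16 and 11 counts in the P-body libraries and 65 and 49 in the cytoplasm libraries. It fell by 1.95 ± 0.57 on the log2 scale (edgeR adjusted p = 0.0218), and the call was lost without either cytoplasm replicate (adjusted p = 0.272 and 0.123). GRIN3A, a subunit that lowers calcium entry through NMDA receptors, was the only subunit called higher in neuron P-bodies. It held 31 and 60 counts there and 12 and 11 in the cytoplasm, or 3.59 and 6.34 CPM against 1.05 and 1.06 CPM. Its log2 change was 2.06 ± 0.63 (edgeR adjusted p = 0.0269), and this call too was lost without either cytoplasm replicate (adjusted p = 0.198 and 0.195).

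GRIN2A, which prevails in the mature brain, held 16.2 and 11.7 CPM in P-bodies and 17.4 and 18.0 CPM in the cytoplasm. GRIN2C, known from the cerebellum, held 18 and 1 counts in P-bodies and 23 and 15 in the cytoplasm. Neither was called, and both were called lower without neuron P-body replicate 1. The GRIN2C counts of the P-body libraries lay on either side of a cytoplasm library.

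Kainate receptors modulate release and excitability, and in neurons GRIK3 and GRIK5 were their most counted subunits. GRIK5, which joins channels only together with GRIK1, GRIK2 or GRIK3, held 37.0 and 41.9 CPM in P-bodies against 92.6 and 89.8 CPM in the cytoplasm. It fell by 1.37 ± 0.14 on the log2 scale (edgeR adjusted p = 7.12e-06). GRIK3, a subunit that can form the channel by itself, held 117 and 78.2 CPM against 167 and 173 CPM and fell by 0.96 ± 0.16 (edgeR adjusted p = 0.000457). The fractions did not overlap for either, and both kept the call under each of 10 alternatives.

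GRIK2 was split evenly, with 37.5 and 28.5 CPM in P-bodies and 30.1 and 30.0 CPM in the cytoplasm, and a change of -0.03 ± 0.20. GRIK4, a high-affinity subunit like GRIK5, held 12.7 and 8.98 CPM against 15.4 and 13.2 CPM. GRIK1 held 9.49 and 2.85 CPM against 10.1 and 10.05 CPM, so that 1 P-body library lay near the cytoplasm and the other far below. None of these 3 was called, while GRIK1 and GRIK4 were called lower without neuron P-body replicate 1, and GRIK1 with the replicate number as a block (adjusted p = 0.0418). Exons of GRIK1 share 45 bases with exons of BACH1 on the opposite strand, and reads there cannot be told apart without strand.

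Delta receptors resemble glutamate receptors but act mainly as anchors of synapses through cerebellins. GRID1 held 5.33 and 8.66 CPM in P-bodies and 6.97 and 9.76 CPM in the cytoplasm of neurons, and the fractions overlapped. Its change of -0.42 ± 0.39 was not called (edgeR adjusted p = 0.454).

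Among the metabotropic glutamate receptors, GRM2 and GRM3, which couple to inhibitory G proteins and form group II, were called lower. GRM2 held 26.5 and 12.2 CPM in P-bodies and 33.7 and 33.5 CPM in the cytoplasm, and its log2 change was -0.96 ± 0.30 (edgeR adjusted p = 0.0278). GRM3 held 6.83 and 8.13 CPM against 12.6 and 13.1 CPM, a change of -0.94 ± 0.31 (edgeR adjusted p = 0.0375). In both the P-body libraries lay below the cytoplasm libraries. The GRM3 call held under 5 of 10 alternatives and the GRM2 call under 9.

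GRM5, a group I receptor that couples to phospholipase C, held 5.09 and 1.90 CPM in P-bodies and 3.22 and 3.67 CPM in the cytoplasm, with overlap. Of group III, which also couples to inhibitory G proteins, GRM4 held 6.60 and 5.81 CPM in P-bodies and 7.06 and 3.67 CPM in the cytoplasm.

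The remaining group III receptors did not pass the test either. GRM7 held 2.66 and 3.06 CPM in P-bodies against 7.58 and 4.93 CPM, with a change of -1.30 ± 0.49 (edgeR adjusted p = 0.0651), and was called lower without either P-body replicate. GRM8 held 2.32 and 2.32 CPM against 4.10 and 3.58 CPM. GRM6, known from retinal bipolar cells, held 12 and 28 counts in P-bodies and 9 and 7 in the cytoplasm.

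GABA-A receptors are pentamers, most often of alpha, beta and gamma subunits. Of 15 such subunits, the rho ones left aside, 3 fell in neuron P-bodies, 11 were not called and 1 was not tested. Their median change was 0.15, weakly counted subunits included, and with DESeq2 2 were lower. Over all genes tested 14.1% were called lower. GABRA3, an alpha subunit of the immature cortex, held 14.1 and 10.4 CPM in P-bodies against 22.9 and 26.8 CPM in the cytoplasm and fell by 1.18 ± 0.25 (edgeR adjusted p = 0.00317). It kept the call under each of 10 alternatives. GABRG3, a gamma subunit, held 9.96 and 12.4 CPM against 16.8 and 17.8 CPM and fell by 0.80 ± 0.27 (edgeR adjusted p = 0.0423), but that call held under 4 of 10 alternatives only.

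The beta subunit GABRB2 held 5.09 and 7.18 CPM in P-bodies and 3.66 and 4.93 CPM in the cytoplasm. Both P-body libraries lay above both cytoplasm libraries, but the change of 0.35 ± 0.45 was not called (edgeR adjusted p = 0.583).

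GABRQ, the theta subunit, held 21.1 and 8.87 CPM in P-bodies and 25.0 and 21.2 CPM in the cytoplasm, a change of -0.79 ± 0.34 (edgeR adjusted p = 0.104). GABRA5, an alpha subunit of extrasynaptic receptors, held 10 and 24 counts in P-bodies and 15 in each cytoplasm library. GABRR1, a rho subunit known from the retina, held 7.06 and 3.91 CPM against 7.495 and 8.12 CPM. GABRR2, the other rho subunit, held 18 and 10 counts against 12 and 3. None of these was called, while GABRQ and GABRR1 were called lower without neuron P-body replicate 1. GABRQ was also called lower in the fit of all human libraries (adjusted p = 0.0145) and with the replicate number as a block (0.00454).

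Among the weakly counted subunits were GABRA2, GABRA4, GABRA6, GABRB1, GABRD, GABRE, GABRP and GRIN3B. GABRD had 0 counts in each neuron library and was not tested there. GABRA6, GABRB1 and GRIN3B had 0 counts in both cytoplasm libraries and at most 6 in a P-body library, and no fold is given for them. GABRE reached 10 counts in a P-body library, and GABRA2, GABRA4 and GABRP stayed at 6 or fewer in every neuron library. Of the 9 weakly counted subunits none was called in neurons. GABRA6 and GABRD are best known from mature neurons. Exons of GRIN3B share 85 bases with exons of TMEM259 on the opposite strand.

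GABA-B receptors need both of their subunits, GABBR1 to bind GABA and GABBR2 to reach the membrane and signal, and both fell in P-bodies. GABBR1 held 136 and 126.5 CPM in P-bodies and 249 and 251 CPM in the cytoplasm, and fell by 1.09 ± 0.10 on the log2 scale (edgeR adjusted p = 2.61e-06). GABBR2 held 29.3 and 29.9 CPM against 63.9 and 77.8 CPM and fell by 1.42 ± 0.16 (edgeR adjusted p = 1.42e-05). The calls held under each of 10 alternatives.

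Levels of different subunits were compared per kilobase of the longest protein-coding transcript (GENCODE 44), in the cytoplasm of neurons. GABBR1 came highest, at 55.2 ± 0.33 CPM per kb (SD, n = 2). GRIK5 followed at 20.2 ± 0.433 and GRIK3 at 17.9 ± 0.389, and GABBR2 had 12.9 ± 1.79 CPM per kb. GRIN2B, first by counts, came ninth at 8.71 ± 0.755 CPM per kb, over a longest transcript of 30609 bases. Measured over the union of exons instead, GABBR1 remained highest at 29.6 CPM per kb, and GRIK3 stood before GRIK5. GRIN2B then had rank 5, at 8.56 CPM per kb, so its place depends on the length used.

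The subunits differ widely in base composition, with a GC content of 37.2% in GABRB2 and 69.0% in GRIN2D. Across these 36 genes Spearman's rho of GC content with the log2 change in neurons was -0.355, and across the 13190 genes that averaged 1 CPM or more and had an annotated transcript it was -0.538. Of 13 subunits with a GC content of at least 50%, 8 were called lower, and their median change was -0.96. The 23 under 50% had 5 called lower and a median of -0.50. Over all genes split in the same way, 2181 of 5751 (37.9%) and 747 of 7439 were called lower, and the medians were -0.64 and 0.38. With 3′ UTR length the rho was 0.486 across the subunits and 0.204 across all genes. Genes of 1 library share its depth and composition and are not independent.

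**Figure D3:**
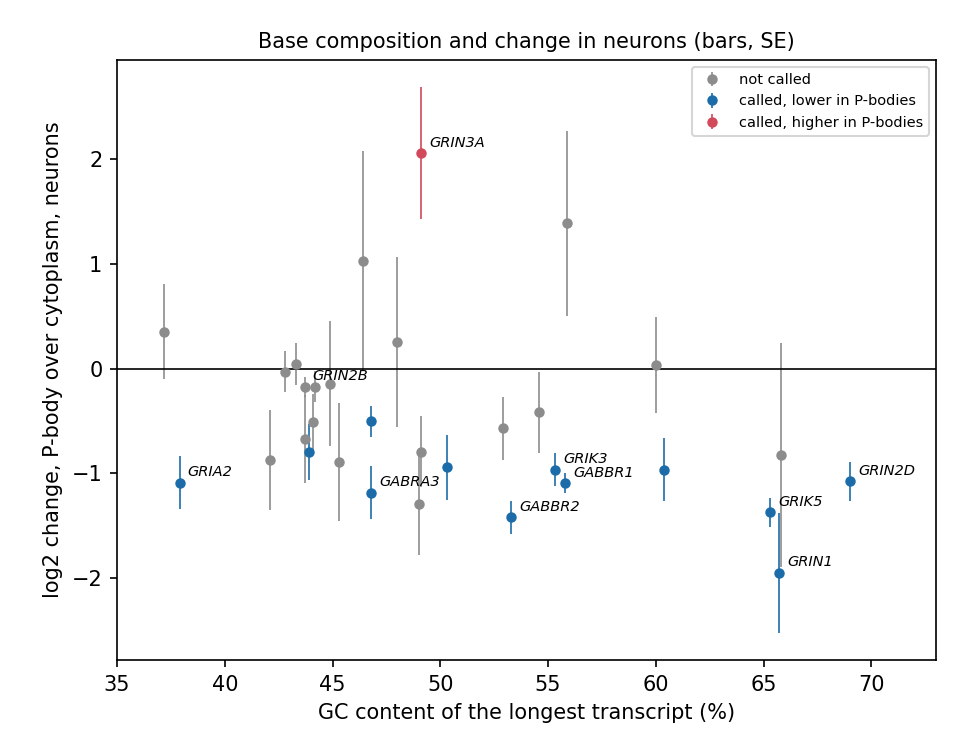
Log2 change from cytoplasm to P-bodies in neurons against the GC content of the longest transcript for the same 32 subunits, with bars of 1 SE. GRIK5, GRIN1 and GRIN2D, at 65.3% GC or more, lie at -1.37, -1.95 and -1.08, while GRIA2 was called lower at 37.9% GC.

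The neuron genes that work beside these receptors were counted from lists of partners. Of 34 partners of glutamate receptors (auxiliary subunits, scaffolds and binding proteins), 15 fell in neuron P-bodies and 4 rose. Beside this and the following lists stand the shares over all genes tested in neurons, 14.1% lower and 14.6% higher. Those shares include genes under 1 CPM. The scaffold DLG4, which gathers NMDA receptors at the postsynaptic density, held 150.4 and 142 CPM in P-bodies and 276 and 272 CPM in the cytoplasm and fell by 1.07 ± 0.10 (edgeR adjusted p = 2.44e-06). SHISA6, an auxiliary AMPA subunit, fell by 1.45 ± 0.16 (edgeR adjusted p = 1.8e-05). In the opposite direction, GRIP1, which binds GRIA2 and GRIA3, held 98.9 and 82.2 CPM against 35.9 and 37.4 CPM and rose by 1.14 ± 0.15 (edgeR adjusted p = 6.73e-05), and the scaffold DLG3 rose by 0.52 ± 0.12 (edgeR adjusted p = 0.00602).

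Of 18 partners of GABA receptors, 8 fell in neuron P-bodies and 0 rose in edgeR, with 1 higher at an unadjusted p under 0.05 and 0 in DESeq2. NLGN2, the adhesion protein of inhibitory synapses, fell by 1.02 ± 0.11 (edgeR adjusted p = 1.09e-05), and CLPTM1, which holds GABA-A subunits in the cell, fell by 1.07 ± 0.13 (edgeR adjusted p = 3.21e-05). Of 19 genes of glutamate and GABA synthesis, loading and uptake, 7 fell and 3 rose. The vesicular glutamate transporter SLC17A6 held 143 and 153 CPM in P-bodies and 47.8 and 50.7 CPM in the cytoplasm and rose by 1.43 ± 0.12 (edgeR adjusted p = 1.19e-06), and the glutamine carrier SLC38A2 rose by 1.27 ± 0.12 (edgeR adjusted p = 3.96e-06). The glutamate uptake carrier SLC1A2 fell by 1.19 ± 0.12 (edgeR adjusted p = 5.45e-06), and ABAT, which breaks down GABA, fell by 0.76 ± 0.10 (edgeR adjusted p = 9.13e-05).

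Glycine receptors, inhibitory chloride channels related to GABA-A receptors, were measured in 5 subunits. GLRA1 rose, from 9.33 and 9.47 CPM in the cytoplasm to 39.9 and 44.8 CPM in P-bodies, higher by 2.01 ± 0.21 on the log2 scale (edgeR adjusted p = 1.14e-05). The other 4 were not called. The median of all 5 was 0.17, close to that of all genes.

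In liver bud progenitors 28 of the subunits averaged 1 CPM or more. Of 44 tested, 10 fell in P-bodies (22.7%) and 4 rose (9.09%), where 17.1% of all 21951 genes tested fell and 21.4% rose. The median change of the subunits was -0.26, against -0.09 over all genes. With DESeq2 the counts were 6 lower and 2 higher, and in a fit of all 12 human libraries 1 was called higher.

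GABRA5 and GABRQ were among the subunits called higher in liver bud progenitor P-bodies. GABRA5 held 4.72 and 4.77 CPM in P-bodies and 2.20 and 2.15 CPM in the cytoplasm and rose by 1.31 ± 0.37 (edgeR adjusted p = 0.00306), a call lost in DESeq2 (adjusted p = 0.0639) and in the fit of all human libraries (0.113). GABRQ held 34.4 and 41.8 CPM against 38.5 and 31.4 CPM, with overlapping fractions, and its change of 0.32 ± 0.12 (edgeR adjusted p = 0.0353) lost the call in 6 alternatives, among them library size only, with an adjusted p of 0.452.

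Lower in liver bud progenitor P-bodies were GRIN2B, GRIN2D, GRIA3, GRIK3, GRIK4, GRIK5, GRM3, GRM4, GABRE and GABBR1. GRIN2B held 11.1 and 13.9 CPM in P-bodies and 60.1 and 56.8 CPM in the cytoplasm, and fell by 2.03 ± 0.14 (edgeR adjusted p = 4.53e-21). GABBR1 held 16.4 and 16.2 CPM against 47.9 and 56.1 CPM and fell by 1.49 ± 0.13 (edgeR adjusted p = 1.27e-15). GRIN2D held 5.87 and 5.36 CPM against 15.9 and 16.6 CPM and fell by 1.35 ± 0.22 (edgeR adjusted p = 6.04e-07). In each of these the fractions were far apart relative to the libraries within them.

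GRIK5 held 14.2 and 11.7 CPM in P-bodies and 25.4 and 24.4 CPM in the cytoplasm of liver bud progenitors and fell by 0.76 ± 0.17 (edgeR adjusted p = 0.000135). GRIK3 held 11.4 and 11.0 CPM against 19.5 and 18.1 CPM and fell by 0.56 ± 0.19 (edgeR adjusted p = 0.0122). GRIK4 held 1.57 and 2.63 CPM against 5.02 and 5.23 CPM and fell by 1.09 ± 0.38 (edgeR adjusted p = 0.016). The 3 kainate subunits called in liver bud progenitors were thus lower in P-bodies, though with DESeq2 the adjusted p was 0.0905 for GRIK3 and 0.12 for GRIK4.

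GRIA3 held 12.9 and 3.895 CPM in P-bodies and 17.4 and 24.2 CPM in the cytoplasm and fell by 1.14 ± 0.24 (edgeR adjusted p = 5.44e-05). Its P-body libraries differed by more from each other than the cytoplasm libraries did, and without P-body replicate 2 the change was -0.51 (adjusted p = 0.0542). GRM4 held 3.46 and 3.99 CPM against 8.48 and 7.92 CPM and fell by 0.95 ± 0.29 (edgeR adjusted p = 0.00648). GABRE, the epsilon subunit, held 1.15 and 1.95 CPM against 4.87 and 7.78 CPM and fell by 1.84 ± 0.39 (edgeR adjusted p = 5.08e-05). GRM3 had 0 and 3 counts in P-bodies and 15 and 11 in the cytoplasm (edgeR adjusted p = 0.00191). With DESeq2 the adjusted p was 0.287 for GRIA3 and 0.0713 for GRM4.

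Another 14 subunits averaged 1 CPM or more in liver bud progenitors and were not called. GRIK2 held 4.09 and 4.38 CPM in P-bodies and 5.65 and 4.56 CPM in the cytoplasm, GRIN2A held 2.31 and 3.31 CPM against 5.02 and 4.16 CPM, and GRM2 held 1.68 and 2.24 CPM against 4.55 and 2.28 CPM. In these 3 the P-body libraries lay below the cytoplasm libraries. GRM8 held 6.92 and 6.23 CPM against 6.12 and 4.16 CPM and GABRG3 held 4.30 and 3.99 CPM against 3.93 and 3.49 CPM, higher in P-bodies but not called. GABRB2, GRIN3A, GABBR2, GABRP, GRIA4 and GRIK1 ranged from 0.471 to 5.24 CPM over the 4 libraries. The fractions overlapped in all of these but GABBR2, which held 1.47 and 0.779 CPM in P-bodies against 2.36 and 2.42 CPM (edgeR adjusted p = 0.2). GABRA3 is given with the interaction test.

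In both cell types 26 subunits averaged 1 CPM or more, and 5 of them were called lower in P-bodies of both, of 10 called lower in neurons and 9 in liver bud progenitors. These were GABBR1, GRIN2D, GRIK3, GRIK5 and GRM3. Among 13135 genes at that level in both cell types, 1647 were called lower in both, of 2998 in neurons and 3317 in liver bud progenitors.

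An interaction term over the 8 libraries of both cell types tested whether the change from cytoplasm to P-bodies differed, given as neurons minus liver bud progenitors. GRIN2B was the 1 subunit of 45 called with a positive difference (2.22%), and GABRA3 was among the 3 with a negative one (6.67%). Neither was called higher in P-bodies of either cell type. Over all 22268 genes tested, 9.21% were called higher and 8.5% lower. GRIN2B differed by 1.85 ± 0.16 on the log2 scale (edgeR adjusted p = 1.26e-06), with fractions that overlapped in neurons and lay far apart in liver bud progenitors. That call held under each of 14 alternatives. In GENCODE 44 GRIN2B lies at chr12:13437942-13982002 on the minus strand.

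GABRA3, at chrX:152166234-152451315 on the minus strand, differed by -1.46 ± 0.41 (edgeR adjusted p = 0.0223). In liver bud progenitors it held 3.56 and 3.51 CPM in P-bodies and 3.30 and 3.36 CPM in the cytoplasm, and its call held under 7 of 14 alternatives. Among the subunits close to the threshold, GRIK5 differed by -0.62 ± 0.21 (edgeR adjusted p = 0.0513), GABRG3 by -1.15 ± 0.41 (edgeR adjusted p = 0.0675) and GABRQ by -1.12 ± 0.41 (edgeR adjusted p = 0.0728). GRM3 went the other way, by 2.40 ± 0.87 (edgeR adjusted p = 0.0704), and was called in 5 of 14 alternatives. Without either neuron P-body replicate more subunits were called in both directions, and the same held over all genes. The median difference was -0.367 over the subunits and 0.033 over all genes without P-body replicate 1, and 0.098 and 0.002 without P-body replicate 2. With all libraries it was -0.0002 and 0.227.

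**Figure D4:**
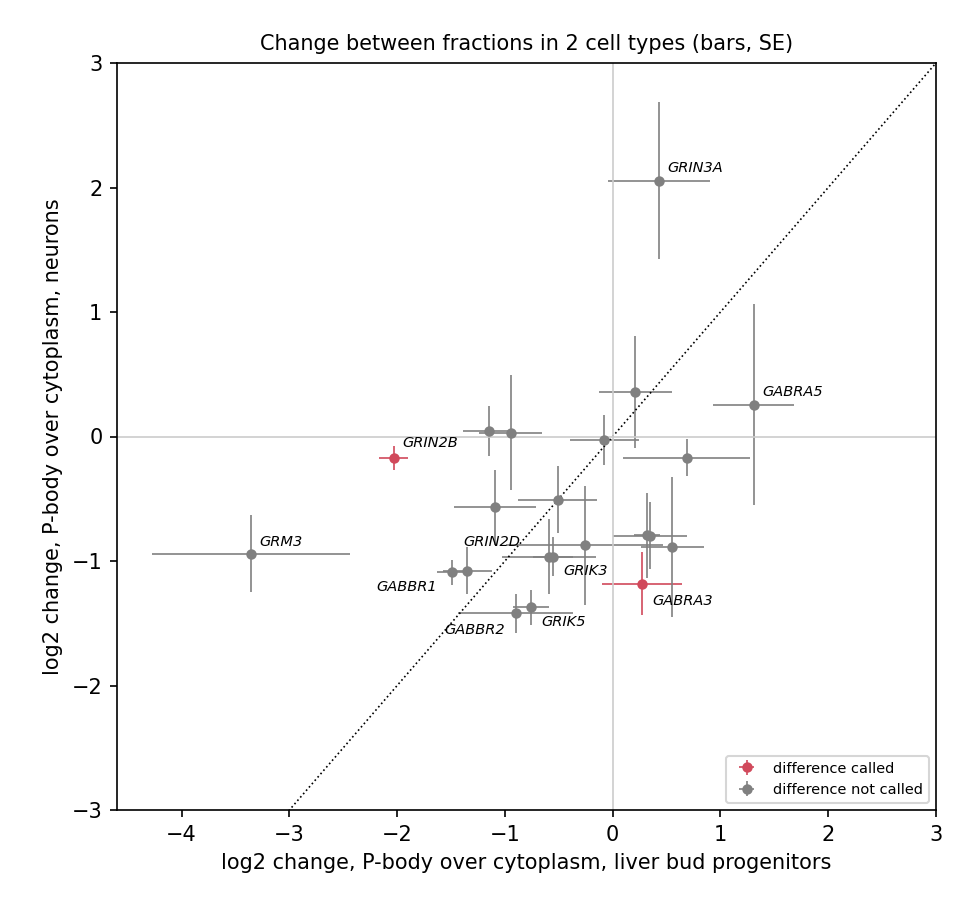
Log2 change from cytoplasm to P-bodies in neurons against that in liver bud progenitors for 22 of the 26 subunits that averaged 1 CPM or more in both, with bars of 1 SE and a dotted line of equal change. GRIN2B lies above the line, at -0.17 against -2.03, and GABRA3 below it, at -1.18 against 0.27.

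The 3′ UTRs of the subunits were read for the letters TGTANATA, the element bound by Pumilio proteins, which are known components of repressed messenger ribonucleoproteins. In the strand of the transcript, 23 of 45 subunits held it (51.1%), against 28.5% of 17282 genes, and there were 0.392 elements per kb of 3′ UTR against 0.226. The median 3′ UTR was longer in the subunits, 2505 against 1335 bases. Of the 36 subunits counted in neurons, 18 held the element, with 8 called lower and a median change of -0.72, and 18 did not, with 5 called lower and a median of -0.54. Over all genes at that level, 17.4% of 4303 with the element and 24.6% of 8819 without it were called lower, with medians of 0.23 and -0.28. The 3′ UTR of GRIN2B, of 25446 bases, held 6 elements, those of GABBR1 and GABBR2 held 1 each, and that of GABRA3 held none. A match describes these letters and not a bound site.

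In the cytoplasm, most subunits were higher in neurons than in liver bud progenitors. Of 44 tested, 27 were higher (61.4%) and 2 lower (4.55%), where 26% of all 21900 genes tested were higher and 25.8% lower. The median log2 difference was 2.19 over the subunits and -0.16 over all genes. In these bulk samples, fewer cells that make a transcript and less of it per cell cannot be told apart. With library size only the median of all genes moved to -0.52 and that of the subunits to 1.80.

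The AMPA subunits GRIA1, GRIA4 and GRIA2 showed the largest such differences among the subunits with at least 5 CPM in neurons. GRIA1 held 56.9 and 57.4 CPM in neuron cytoplasm and 0.471 and 1.07 CPM in that of liver bud progenitors, a log2 difference of 6.52 ± 0.25 (edgeR adjusted p = 1.92e-36). GRIA4 differed by 6.04 ± 0.24 and GRIA2 by 5.87 ± 0.36. In the liver bud progenitor cytoplasm libraries GRIA1 had 3 and 8 counts, GRIA4 11 and 5, and GRIA2 2 and 4. GABBR2 differed by 5.26 ± 0.20 and GABRR1 by 4.75 ± 0.48. In the same libraries GABBR2 had 15 and 18 counts, and GABRR1 3 and 2, at or under the floor of 3. All 5 kainate subunits were higher in neurons, by 1.87 (GRIK4) to 3.56 (GRIK3).

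GABRE was lower in neurons, with a log2 difference of -3.23 ± 0.52 (edgeR adjusted p = 9.21e-08) and 2 and 9 counts there against 31 and 58 in liver bud progenitor cytoplasm.

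**Figure D5:**
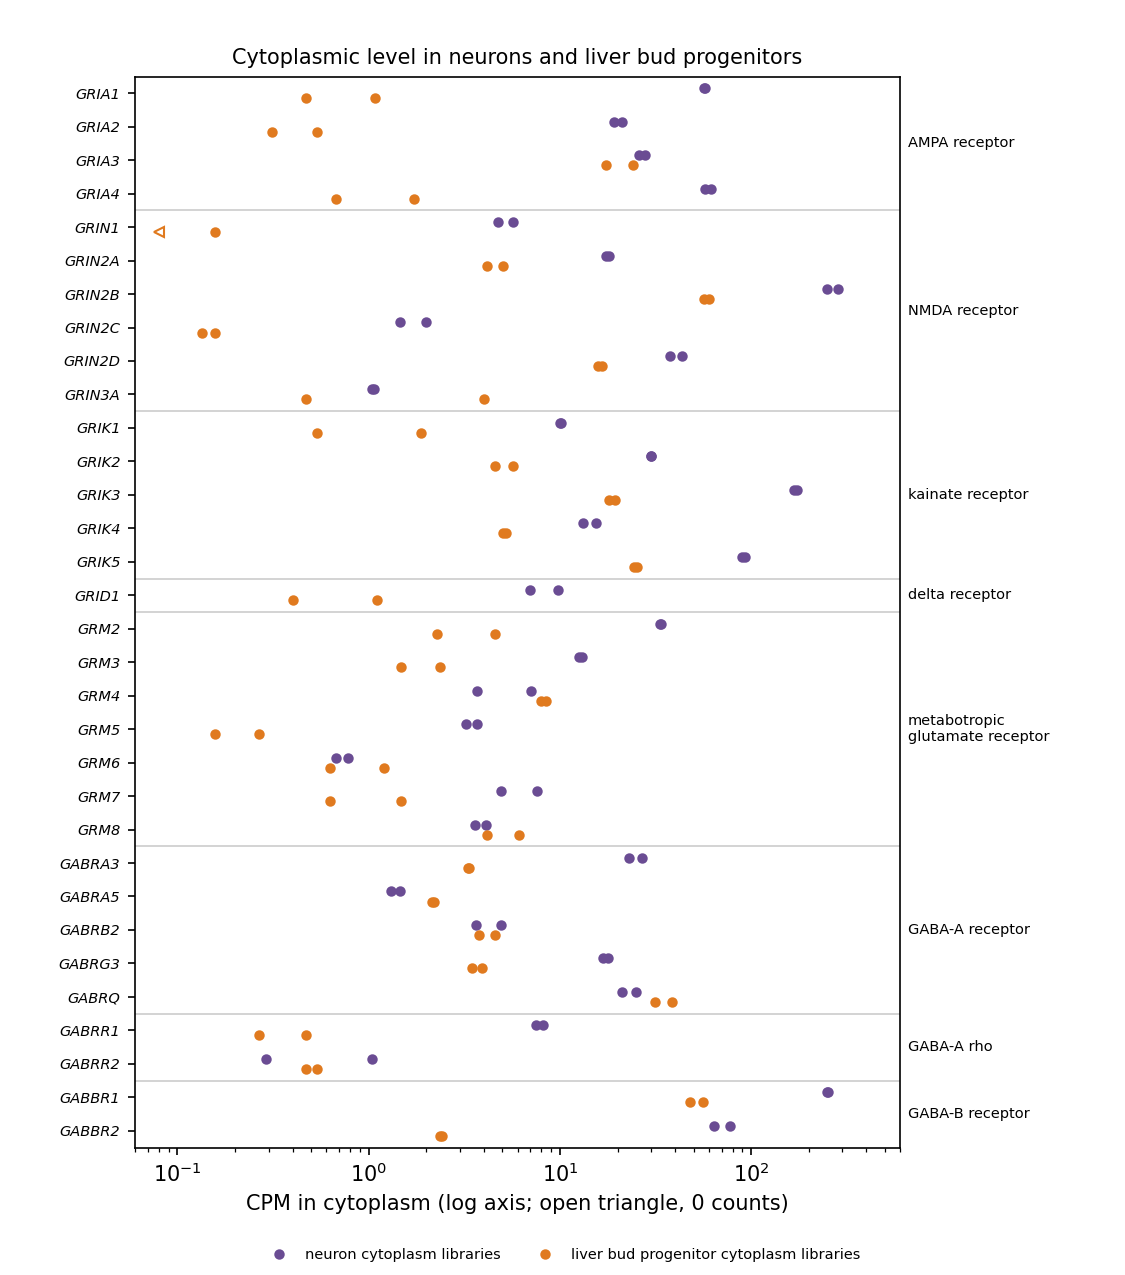
Level of the same 32 subunits in cytoplasm, in CPM on a log axis, with a purple circle for each neuron library and an orange circle for each liver bud progenitor library. GRIA1, GRIA2 and GRIA4 lie far apart between the cell types, while the 4 libraries of GRM4 lie between 3.67 and 8.48 CPM.

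In HEK293T, 11 subunits averaged 1 CPM or more. Of 43 tested, 4 fell in P-bodies (9.3%) and 1 rose (2.33%), where 22.8% of all 21903 genes fell and 19.3% rose. The median change was 0.09 over the subunits and -0.01 over all genes. The other subunits averaged under 1 CPM here, and most differences in them could not be detected at this depth.

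GABBR1 held 5.62 and 3.34 CPM in P-bodies and 8.37 and 8.04 CPM in the cytoplasm of HEK293T and fell by 0.76 ± 0.23 (edgeR adjusted p = 0.0052), a call lost in DESeq2 (adjusted p = 0.116) and without P-body replicate 2 (0.269). GABBR2 held 1.90 and 1.34 CPM against 5.36 and 4.11 CPM and fell by 1.43 ± 0.32 (edgeR adjusted p = 0.000138). Both GABA-B subunits were thus called lower in P-bodies of HEK293T as of neurons.

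GRIN2D held 2.55 and 2.003 CPM in HEK293T P-bodies against 7.20 and 6.17 CPM and fell by 1.43 ± 0.27 (edgeR adjusted p = 7.61e-06). It was called lower in all 3 cell types, as was GABBR1. GRIN2B held 3.73 and 3.12 CPM against 2.09 and 2.32 CPM, a change of 0.76 ± 0.32 that missed the threshold (edgeR adjusted p = 0.0509) and was called higher in 4 of 10 alternatives, with adjusted p from 0.00291 to 0.0373. GABRQ was called higher, with 2.42 and 1.61 CPM against 0.754 and 1.16 CPM and a change of 1.20 ± 0.47 (edgeR adjusted p = 0.032), a call lost in DESeq2 (adjusted p = 0.113), with library size only (0.0596) and without either P-body replicate 1 or cytoplasm replicate 1 (0.307 and 0.165).

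GRID1, GRIK2 and GRIN2A were not called in HEK293T. GRID1 held 5.36 and 5.34 CPM in P-bodies and 6.28 and 4.65 CPM in the cytoplasm. GRIK2 held 1.64 and 2.62 CPM against 1.51 and 1.88 CPM, and GRIN2A held 1.18 and 1.95 CPM against 0.837 and 0.715 CPM. GRIN1 and GABRA5 had 0 counts in every HEK293T library.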

How the data were processed

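Per the labels and the table, the authors deposited gene read counts, not normalized, against hg38, with genes under 10 reads over all samples removed. The study's methods give the nf-core RNA-seq pipeline with salmon for total RNA, and HISAT2 with featureCounts for Smart-seq, the polyA-directed preparation. Whether counting used strand is not given in the sources used here. The authors' tables of DESeq2 fold changes and p-values, and the mouse libraries, were not used.

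Groups came from the labels. Fractions were compared on the 4 libraries of a cell type, the difference between neurons and liver bud progenitors as an interaction over 8, and their cytoplasm over 4, by edgeR 4.0.16 (quasi-likelihood fit, R 4.3.3), TMM normalization, no covariate and Benjamini-Hochberg adjustment over all genes tested, two-sided. A gene at 0 counts throughout a comparison was not tested in it. The SE is the log2 change divided by the square root of F. CPM values were not TMM scaled. Alternatives were RLE size factors, library size only, DESeq2 1.42.0, filterByExpr, 1 fit of 12 libraries, the replicate number as a block, each library left out, a minimum of 5 CPM and union-of-exon length. Lengths, GC content and 3′ UTRs came from the longest protein-coding transcript of GENCODE 44. Every subunit with a mean of at least 1 CPM was described; of each partner list, the 2 called genes per direction with the smallest p and at least 5 CPM were named. The subunits and lists were chosen with earlier results of these data known. The tests were tried on simulated counts. A chi-square of replicate counts lay above sampling noise in every group, and each library was counted as its own sample. A few subunits are counted in the totals but not reported here by name.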

Additional observations from a re-analysis of the deposited data

Results flagged for a closer look

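Of the 45 subunits, 4 differed between neurons and liver bud progenitors in their change from cytoplasm to P-bodies, by the interaction test in edgeR. The difference is given as the log2 change in neurons minus that in liver bud progenitors. Among them GRIN2B differed by 1.85 and GABRA3 by -1.46. Groups of 2 libraries were too small to test for a library far from the others.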

How the results depend on the processing

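With library size only, the median change of the subunits was -0.34 in neurons, -0.445 in liver bud progenitors, -0.038 in HEK293T, 0.355 for the interaction and 1.805 between cytoplasms; 0 subunits were then called higher in HEK293T and 4 in the interaction. Over all genes the calls then were 3839 higher and 2356 lower in neurons (3220 and 3123 with TMM), 3822 and 4850 in liver bud progenitors, 3684 and 5635 in HEK293T, 3520 and 940 in the interaction, and 4173 and 7270 between cytoplasms. With RLE size factors HEK293T had 2 subunits higher and a median of 0.175. With DESeq2 liver bud progenitors had 2 higher and 6 lower, and HEK293T 0 higher and a median of 0.178. With filterByExpr fewer subunits were kept, 27 in liver bud progenitors, 16 in HEK293T and 34 between cytoplasms. Over these the medians were -0.35, 0.256 and 2.746, with 3 subunits higher in HEK293T and 3 in the interaction. In 1 fit of all human libraries, 1 was higher in liver bud progenitors and 3 in HEK293T, with a HEK293T median of 0.214. At a minimum of 5 CPM, 0 were called higher in neurons by edgeR, since GRIN3A lies under it. The cause of the other shifts was not tested.

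Leaving out 1 library at a time, neurons had 0 to 1 subunits higher and 8 to 21 lower, with a median of -0.634 to -0.291. The median of the subunits was -0.333 to -0.225 in liver bud progenitors. In HEK293T it was -0.003 to 0.373, and over all genes -0.087 to 0.072. The interaction had 1 to 4 higher and 1 to 9 lower, with a median of -0.367 to 0.13. An arm left with 1 library is assumed to vary like the other.

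Same-numbered libraries did not deviate together (correlations of 0.002 in neurons, -0.01 in liver bud progenitors and -0.016 in HEK293T). P-bodies were sorted from a cytoplasmic fraction, and the labels do not say whether same-numbered libraries came from the same lysate. The correlations cannot decide this. With the replicate number as a block, 16 subunits were lower in neurons, 2 were higher in HEK293T, and the interaction had 3 higher and 5 lower. Over all genes that fit called 3601 lower in neurons (3123 without a block) and 4157 higher in HEK293T (4221). In the interaction it called 2367 higher and 2334 lower (2050 and 1892). With 2 libraries a group and few counts, only large changes could be detected in the weakly counted subunits.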
